A study of Mus musculus with 6 samples.

Results

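Mitosis and spindle checkpoint genes encode the machinery that carries a cell through nuclear division. A list of 42 such genes was taken, and a gene counted as measured where the array annotation named it alone on a probe set. Of the 42 genes, 41 were measured, among the 19937 genes tested. Ccnb1, the gene of cyclin B1, was on no probe set that the annotation table names for it alone, so it has no value here. Where a gene had several probe sets, the one with the highest mean over the arrays stood for it.

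RNA was profiled from 6 tumours on 1 single-colour whole-transcript array each. The E2 group held 3 tumours from SCID mice that carried 17β-estradiol (E2) pellets, and the Placebo group held 3 tumours from SCID mice that carried placebo pellets. In both groups the pellets went in at the same time as MASE2 cells were injected. MASE2 is a single line of ascites cells from a tgCAG-LS-TAg mouse, itself treated with E2, in which intrabursal AdCre switches on the SV40 large and small T antigens in ovarian surface epithelium (OSE). The cells were grown in MOSE media before injection, so all 6 tumours share the T antigens and the E2 treatment of the donor mouse. As hosts, SCID mice have no mature T or B cells. Tumours were collected at a loss-of-wellness endpoint, and the labels give no day, pellet dose or mouse age. The series title links E2 to faster tumour progression and to Greb1, and the comparison here asks how genes of dividing cells differed between E2 and Placebo tumours.

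At the onset of mitosis, Cdk1 bound to cyclins A and B is switched on by Cdc25 phosphatases, and Aurora and Polo kinases build the spindle. Kinetochores that are not yet attached to microtubules activate the spindle checkpoint, in which Mad2l1, Bub1b and Bub3 hold back Cdc20, the activator of the anaphase-promoting complex. Once all chromosomes are attached, securin is degraded, separase cuts cohesin, and kinesins, Prc1, Ect2 and anillin drive the midzone and cytokinesis. Transcripts of these genes accumulate in G2 and M phase and are low in resting cells, and SV40 large T antigen frees such transcription by binding proteins of the retinoblastoma family.

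Many promoters of these genes hold a cell cycle homology region (CHR), which MuvB complexes bind together with B-Myb or Foxm1, and CCAAT boxes, which NF-Y binds. Promoter windows from RefSeq on build GRCm38.p6, running from 250 bases before to 50 bases after a gene start, were found for 33 of the 41 measured genes. The following windows are shown because Mki67 and Mad2l1 went opposite ways in the results. Bub1b is in the checkpoint group of Mad2l1, and Ccnb2 is in the Cdk1 group, which does not hold Mki67. Capitals mark the CHR core TTTGAA and the CCAAT box on either strand (ATTGG where the box lies on the opposite strand), and each window is written 5′ to 3′ on the strand of its gene.
Mki67: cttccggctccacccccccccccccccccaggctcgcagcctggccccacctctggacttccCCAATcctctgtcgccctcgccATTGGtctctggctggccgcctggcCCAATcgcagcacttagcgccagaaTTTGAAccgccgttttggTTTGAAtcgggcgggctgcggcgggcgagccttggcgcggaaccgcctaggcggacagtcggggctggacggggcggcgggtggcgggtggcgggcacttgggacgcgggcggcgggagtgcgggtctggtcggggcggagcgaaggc
Ccnb2: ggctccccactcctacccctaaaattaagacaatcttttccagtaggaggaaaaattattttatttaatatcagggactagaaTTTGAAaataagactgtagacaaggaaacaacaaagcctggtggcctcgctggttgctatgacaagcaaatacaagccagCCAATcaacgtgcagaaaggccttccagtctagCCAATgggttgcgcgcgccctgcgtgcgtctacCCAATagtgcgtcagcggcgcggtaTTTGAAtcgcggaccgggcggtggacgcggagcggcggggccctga
Bub1b: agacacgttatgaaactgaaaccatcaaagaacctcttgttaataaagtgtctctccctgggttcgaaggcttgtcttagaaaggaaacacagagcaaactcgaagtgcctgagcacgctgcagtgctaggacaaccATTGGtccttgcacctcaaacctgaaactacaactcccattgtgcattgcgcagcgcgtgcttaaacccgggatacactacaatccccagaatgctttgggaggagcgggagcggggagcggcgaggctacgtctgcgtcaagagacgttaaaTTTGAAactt
Mad2l1: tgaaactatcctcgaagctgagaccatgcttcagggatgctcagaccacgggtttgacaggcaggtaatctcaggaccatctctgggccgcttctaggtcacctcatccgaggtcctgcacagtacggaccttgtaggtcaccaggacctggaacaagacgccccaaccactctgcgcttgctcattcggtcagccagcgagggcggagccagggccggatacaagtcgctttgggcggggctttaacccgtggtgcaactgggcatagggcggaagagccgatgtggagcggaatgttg
The Mki67 window, at chr7:135716330-135716629 on the minus strand, held 2 CHR cores and 3 CCAAT boxes. The Ccnb2 window, at chr9:70421505-70421804 on the minus strand, also held 2 CHR cores and 3 CCAAT boxes. The Bub1b window, at chr2:118597961-118598260 on the plus strand, held 1 CHR core and 1 CCAAT box. The Mad2l1 window, at chr6:66534971-66535270 on the plus strand, held neither. Neither motif was in the windows of Birc5, Kif18a, Melk, Nuf2 and Pttg1, whose log2 changes without Placebo replicate 3 were -0.18 to 0.14. Whether these motifs go with the changes was not tested.

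Over the list, the CHR core was found in 23 of 33 windows (69.7%), against 17.3% of the 15613 tested genes that have a window. CCAAT boxes were found in 24 of 33 (72.7%), against 41.7% of those genes, and both motifs together in 20 of 33 (60.6%), against 7.94%. The E2F sequence TTTCCCGC was in 0 of 33 windows (1.76% of all), and TTTGGCGC was in 1, that of Kif18a (3.03%, against 0.833% of all). The palindromic estrogen response element was in 0 of 33 windows and in 0.0384% of all. Both strands were searched, matches of different motifs were counted wherever they overlapped, and a gene counted once however many matches it had. A match describes the letters of the window only.

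Levels are log2 intensities, so a difference of 1 is 2-fold. The medians of the 6 arrays over all genes lay between 5.26 and 5.41, and the lower quartiles between 4.22 and 4.39. No mitosis gene was below the lower quartile on any array. The array of Placebo replicate 3 stood apart. Its Pearson r with the other arrays over all genes, which are not independent replicates, was 0.857 to 0.865, against 0.960 to 0.994 among those arrays. All 18 markers of intestinal epithelium were highest in Placebo replicate 3, where their median level was 10.82, against 4.33 to 4.66 in the E2 tumours and 4.43 and 4.53 in Placebo replicates 1 and 2. Apoa1, an apolipoprotein of enterocytes, read 12.10 there, Apoa4 11.88 and the brush border peptidase Anpep 11.58. The changes of the mitosis genes are therefore given with and without that array. Greb1, the estrogen receptor target of the series title, read 8.44, 8.42 and 8.53 in E2 tumours, against 4.88, 5.39 and 4.87 in Placebo tumours. It rose with E2 by a log2 change of 3.41 (SE 0.16, limma adjusted p = 0.00131), and of 3.33 without Placebo replicate 3 (adjusted p = 2.74e-05).

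On all 6 arrays, none of the 41 mitosis genes passed limma's test at an adjusted p under 0.05. Of all 19937 genes, 276 (1.38%) did, 211 higher with E2 (1.06%) and 65 lower (0.326%). At an unadjusted p under 0.05 the mitosis genes numbered 2, Aurka and Mad2l1, both higher with E2, and the share of all genes was 16.5%. The estimated change was above 0 for 40 of the 41 genes, with Mki67 the exception, against 48.3% of all genes. The median change was 0.30, in a range of -0.34 to 0.91, while the median over all genes was -0.0087. With quantile normalization repeated, 38 of the 41 estimates were above 0 and the median change was 0.17. All 3 E2 tumours lay above all 3 Placebo tumours for 8 of the 41 genes (14.9% of all genes), namely Aurka, Bub1b, Mad2l1, Pttg1, Nuf2, Kif2c, Tpx2 and Ect2. They lay below all 3 for 0 of them (11.4% of all genes).

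Those positive estimates went with 1 array. Placebo replicate 3 had the lowest level of the 6 arrays for 41 of 41 mitosis genes, against 33.0% of all genes. The median level of the mitosis genes was 7.45, 7.43 and 7.46 in the E2 tumours, against 7.61, 7.30 and 6.35 in the Placebo tumours. The E2 tumours thus lay close together, between Placebo replicates 1 and 2, and Placebo replicate 3 lay below them all. Set against the mean of Placebo replicates 1 and 2, Placebo replicate 3 was lower by a median of 1.97-fold (log2 difference -0.98, in a range of -1.57 to -0.34), while the median difference over all genes was -0.02. The difference was at least 0.5 log2 units downward for 37 of the 41 genes (90.2%), against 18% of all genes. Intestinal markers were highest in the same tumour, with a median difference of 6.34, and their part in the low mitosis gene levels was not tested. In whole tumour RNA, fewer dividing cells and less RNA per dividing cell cannot be told apart.

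The 5 genes with the largest shortfall in Placebo replicate 3 were Prc1 (-1.57), Anln (-1.51), Kif11 (-1.46), Kif2c (-1.45) and Mki67 (-1.44). The midzone bundler Prc1 and the contractile ring protein anillin act in cytokinesis. Kif11 is a spindle motor, Kif2c is a microtubule depolymerase, and Mki67 coats mitotic chromosomes. The 5 with the smallest were Pttg1 (-0.34), Aurka (-0.35), Spc24 (-0.36), Birc5 (-0.46) and Cdca8 (-0.62). By role, the median shortfall was deepest for the spindle assembly and cytokinesis genes at -1.34, the chromosome structure genes at -1.22 and the kinesins at -1.20. It was shallowest for the chromosomal passenger complex at -0.71 and the mitotic kinases at -0.73. The difference was larger for genes of higher mean intensity in Placebo replicates 1 and 2, with Pearson r = -0.46 and Spearman rho = -0.46 across the 41 genes. These genes are not independent, and the same pair of arrays enters both measures. The part of intensity in the order of the roles was not tested.

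**Figure D1:**
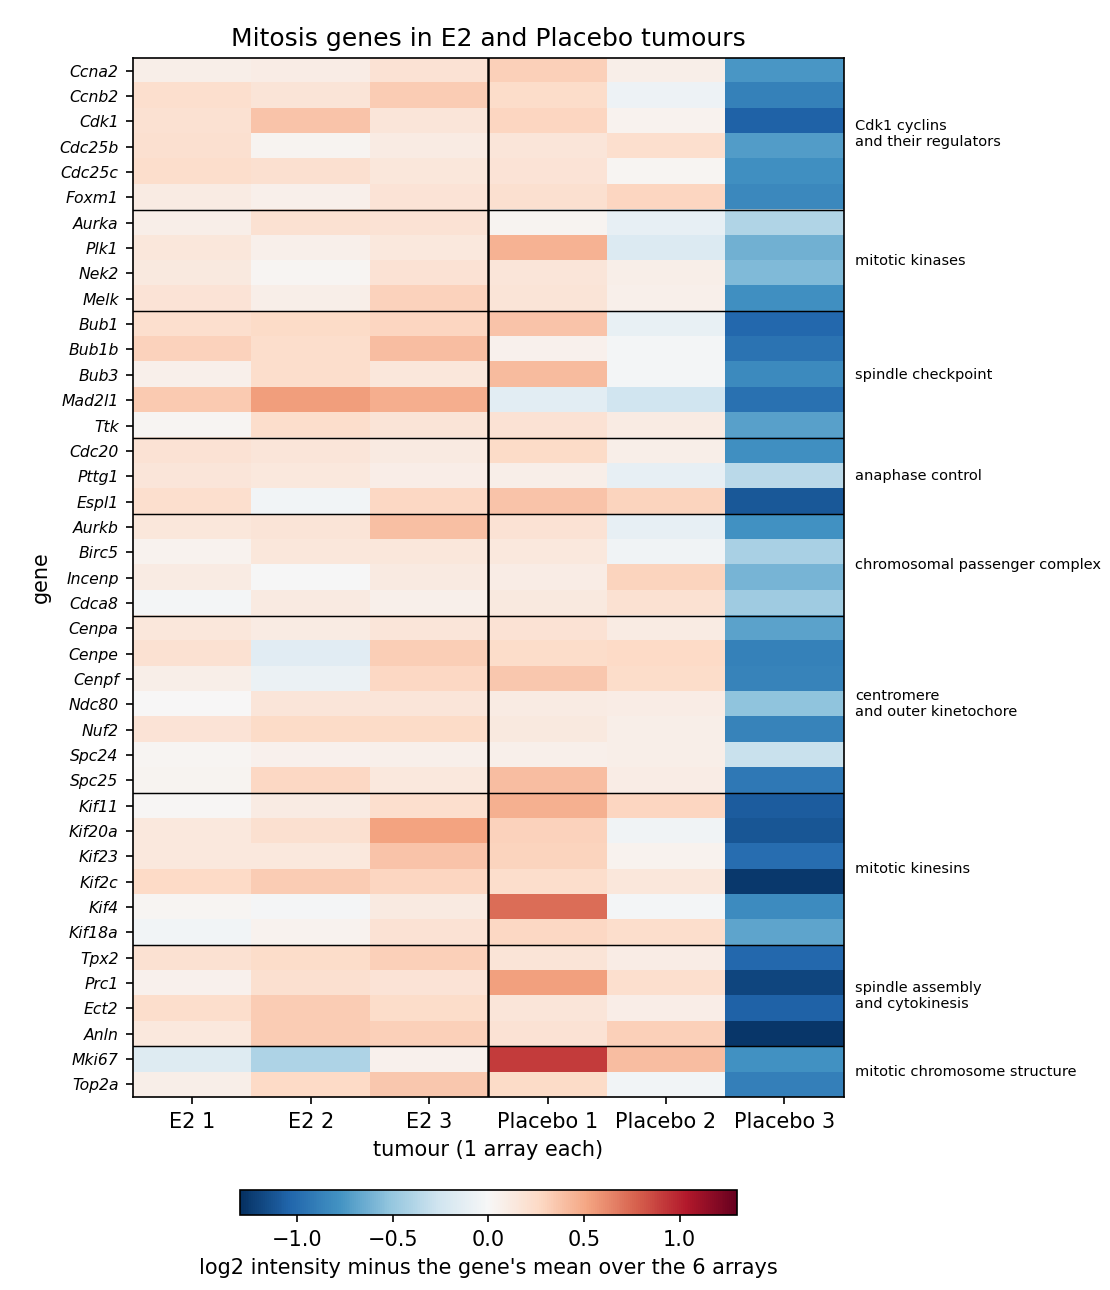
Level of each of the 41 measured mitosis genes on each array, as log2 intensity minus the gene's own mean over the 6 arrays (colour scale), with E2 tumours on the left, Placebo tumours on the right and genes grouped by role. The column of Placebo replicate 3 is the lowest in every row, and in the Mki67 row Placebo replicates 1 and 2 are above all E2 tumours.

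With Placebo replicate 3 left out, the median change of the mitosis genes was -0.0049, with 20 estimates above 0 and 21 below. Over all genes 47.5% were above 0 and the median was -0.01. With limma, 2 of the 41 genes passed at an adjusted p under 0.05, against 11.6% of all genes. Mad2l1 rose with E2 (6.40% of all genes did) and Mki67 fell (5.21%). Neither share of the list exceeds the background. The 95% confidence interval of the change lay within 1 log2 unit of 0 for 40 of the 41 genes, all but Mki67, and within 0.5 for 35. The genes outside 0.5 were Bub1b, Mad2l1, Kif11, Kif20a, Kif4 and Mki67. The median standard error was 0.10 on these 5 arrays, against 0.28 on all 6. All E2 tumours lay above Placebo replicates 1 and 2 for the 8 genes named before (21.2% of all genes), and below both for 7, namely Foxm1, Espl1, Cdca8, Kif11, Kif18a, Prc1 and Mki67 (20.4% of all genes).

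**Figure D2:**
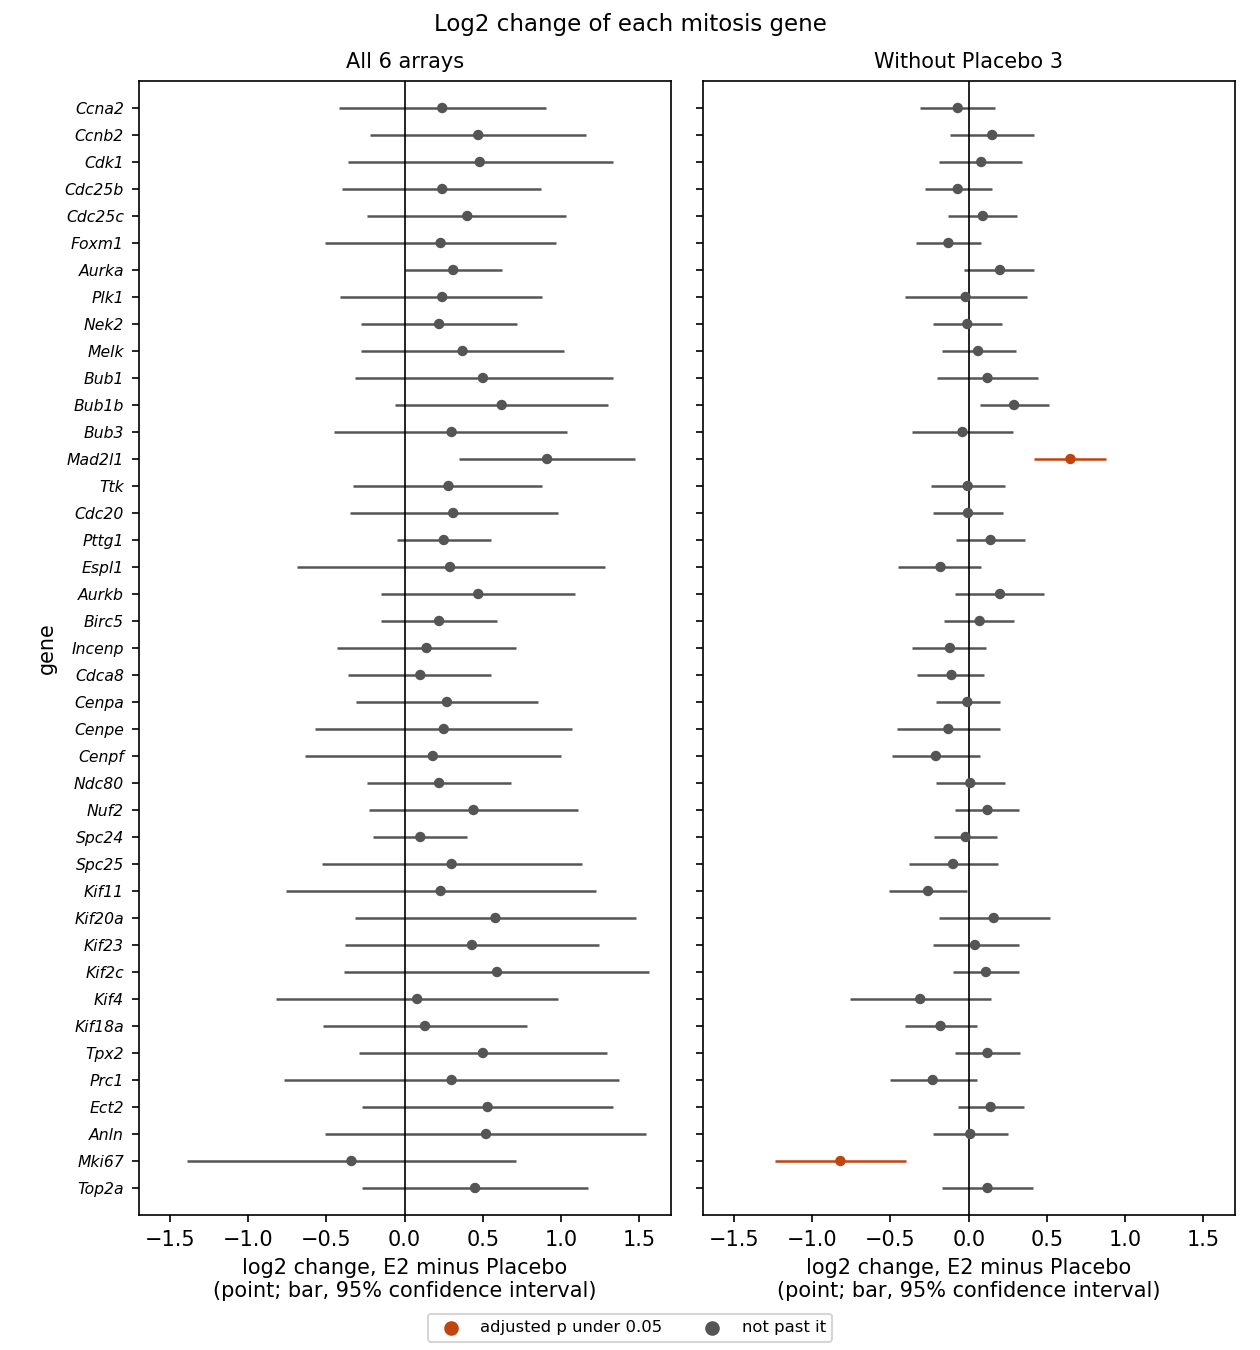
Log2 change, E2 minus Placebo, of each of the 41 mitosis genes with its 95% confidence interval, on all 6 arrays (left) and without Placebo replicate 3 (right); orange marks an adjusted p under 0.05. On the left 40 points lie above 0 with wide intervals and none is orange, and on the right the points scatter about 0 with Mad2l1 at 0.65 and Mki67 at -0.82 standing out.

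Mki67 encodes Ki-67, the standard marker of cycling cells, which coats mitotic chromosomes and keeps them apart. Its log2 intensity was 8.20, 7.97 and 8.43 in E2 tumours, against 9.28, 8.77 and 7.58 in Placebo tumours. Placebo replicates 1 and 2 were above every E2 tumour and Placebo replicate 3 was below every one, so the groups overlapped. The means were 8.20 ± 0.23 with E2 and 8.54 ± 0.87 with Placebo (SD, n = 3 each). The change of -0.34 (SE 0.43, interval -1.39 to 0.71) had an adjusted p of 0.713 in limma. Without Placebo replicate 3, Mki67 fell, with a change of -0.82 (SE 0.18, interval -1.24 to -0.40, adjusted p = 0.0253), so it was 1.77-fold lower with E2. That call rested on few tumours. A fit that leaves out a second Placebo array sets 3 E2 tumours against 1 Placebo tumour, takes its spread from the E2 tumours and assumes that the lone tumour varies like them, so its p says nothing about the spread among Placebo tumours. With 1 further array left out of the 5, Mki67 stayed under the threshold without E2 replicate 3 (-0.94, adjusted p = 0.0303) and missed it without E2 replicate 1 (-0.82, adjusted p = 0.0936) or E2 replicate 2 (-0.71, adjusted p = 0.0855). Against the lone Placebo replicate 1 the change was -1.08 (adjusted p = 0.00637), and against the lone Placebo replicate 2 it was -0.57 (adjusted p = 0.092).

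Mad2l1 encodes Mad2, the checkpoint protein that binds Cdc20 while kinetochores are unattached. Its log2 intensity was 9.14, 9.34 and 9.27 in E2 tumours, against 8.66, 8.54 and 7.82 in Placebo tumours. Every E2 tumour was above every Placebo tumour, and the gap to Placebo replicate 1, the nearest, was wider than the range of the E2 tumours. The means were 9.25 ± 0.10 with E2 and 8.34 ± 0.45 with Placebo (SD, n = 3 each). The change was 0.91 (SE 0.23, interval 0.35 to 1.47), with an adjusted p of 0.136 in limma on all 6 arrays. Without Placebo replicate 3, Mad2l1 rose by 0.65 (SE 0.10, interval 0.42 to 0.88, adjusted p = 0.00635), or 1.57-fold. With 1 E2 array left out as well it passed in 3 of 3 fits, with changes of 0.61 to 0.70 and adjusted p of 0.0206 to 0.0322. Against the lone Placebo replicate 1 its change was 0.59 (adjusted p = 0.025), and against the lone Placebo replicate 2 it was 0.71 (adjusted p = 0.012).

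Since the whole list was low in 1 tumour, each gene was also read against the median of the other measured mitosis genes on its own array, a setting added after the values were seen. The offset itself carries no meaning, since it compares different probe sets, and only its change between arrays is read. The offset of Mki67 was 0.85, 0.55 and 1.02 in E2 tumours, against 1.69, 1.48 and 1.24 in Placebo tumours. On this scale Placebo replicate 3 was also above every E2 tumour, and the difference of means was -0.67. The offset of Mad2l1 was 1.79, 1.92 and 1.85 in E2 tumours, against 1.07, 1.25 and 1.48 in Placebo tumours, a difference of 0.58. An exact two-sided permutation test gave p = 0.10 for each gene, the smallest that 3 against 3 tumours allow. Any gene whose groups do not overlap gets that p. Both genes were picked on these same arrays, so the test adds no support.

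Over the other 39 genes the difference of the offsets ran from -0.33 for Kif4 to 0.29 for Bub1b. All E2 tumours lay above all Placebo tumours on this scale for 7 genes, Bub1, Bub1b, Mad2l1, Kif20a, Kif2c, Tpx2 and Ect2 (1.79% of all genes). They lay below for 3, Kif4, Kif18a and Mki67 (11.8% of all genes). The median of the mitosis genes was 6.35 in Placebo replicate 3, against 7.30 to 7.61 on the other arrays. Subtracting it raises genes outside the list in that tumour, so these shares are not a like-for-like background.

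**Figure D3:**
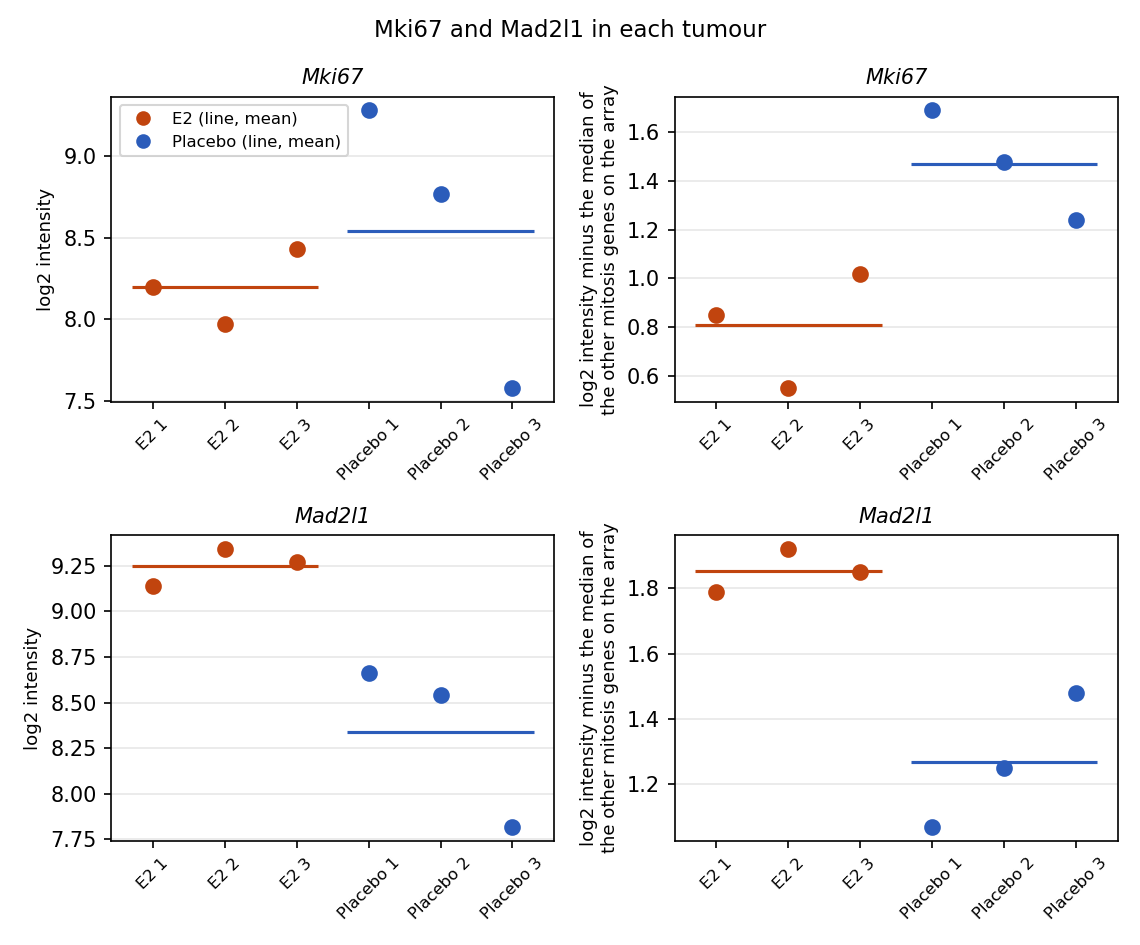
Mki67 (top) and Mad2l1 (bottom) in each tumour, as log2 intensity (left) and as log2 intensity minus the median of the other mitosis genes on the array (right); points are tumours, 1 array each, and lines are group means. Mki67 separates E2 from Placebo tumours on the right-hand scale, where E2 reads 0.55 to 1.02 and Placebo 1.24 to 1.69, and overlaps on the left, while Mad2l1 separates them on both.

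Among the spindle checkpoint genes, 5 of 5 had estimates above 0 on all 6 arrays, with a median of 0.50, and 3 of 5 did without Placebo replicate 3, with a median of 0.12. Bub1b, the partner of Mad2 in the complex that inhibits Cdc20, was named after its values were seen. It read 7.88, 7.81 and 7.98 in E2 tumours, against 7.64, 7.55 and 6.62 in Placebo tumours, without overlap. Its change was 0.62 (SE 0.28, limma adjusted p = 0.341) and 0.29 without Placebo replicate 3 (SE 0.10, adjusted p = 0.1). The kinases Bub1 and Ttk and the adaptor Bub3 had changes of 0.50, 0.28 and 0.30, and of 0.12, -0.0066 and -0.04 without Placebo replicate 3. Mad2l1 was thus the only checkpoint gene past the threshold without that array, and whether its change differed from those of Bub1, Bub3 and Ttk was not tested.

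The Cdk1 cyclins and their regulators, measured as 6 of 7 listed genes, had a median change of 0.32 on all 6 arrays and 0.0057 without Placebo replicate 3. Ccnb2 encodes cyclin B2, a partner of Cdk1. It read 8.55, 8.50 and 8.66 in E2 tumours, against 8.57, 8.27 and 7.46 in Placebo tumours, so the groups overlapped through Placebo replicate 1. Its change was 0.47 (SE 0.28, limma adjusted p = 0.466), and 0.15 without Placebo replicate 3 (adjusted p = 0.51). Cdk1 itself had a change of 0.48 and of 0.08 without that array, with an interval of -0.19 to 0.34. The other 4, Ccna2, the phosphatases Cdc25b and Cdc25c and the transcription factor Foxm1, had changes of -0.13 to 0.09 without it.

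The 4 mitotic kinases had a median change of 0.27 on all 6 arrays and 0.03 without Placebo replicate 3. Aurka, the Aurora kinase of centrosomes and spindle poles, read 7.13, 7.26 and 7.25 in E2 tumours, against 7.09, 6.95 and 6.67 in Placebo tumours. The groups did not overlap, but E2 replicate 1 was only just above Placebo replicate 1. The change was 0.31 (SE 0.13, limma adjusted p = 0.3), and 0.20 without Placebo replicate 3 (SE 0.10, adjusted p = 0.27). Plk1, Nek2 and Melk had changes of 0.22 to 0.37, and of -0.02 to 0.06 without that array.

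The anaphase genes Cdc20, Pttg1 and Espl1 (the activator of the anaphase-promoting complex, securin and separase) had a median change of 0.29 and of -0.0049 without Placebo replicate 3. Pttg1 read 6.42, 6.40 and 6.35 in E2 tumours, against 6.34, 6.16 and 5.91 in Placebo tumours. The lowest E2 tumour and the highest Placebo tumour were almost level. The change was 0.25 (SE 0.12, limma adjusted p = 0.379), and 0.14 without Placebo replicate 3 (adjusted p = 0.441). Espl1 had a change of 0.29 on all 6 arrays and of -0.18 without that array, and neither passed the test.

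The chromosomal passenger complex corrects faulty kinetochore attachments and later acts at the midzone. Its 4 genes had a median change of 0.18, and of -0.02 without Placebo replicate 3. The kinase subunit Aurkb read 8.03, 8.05 and 8.27 in E2 tumours, against 8.07, 7.78 and 7.09 in Placebo tumours, with Placebo replicate 1 inside the E2 range. Its change was 0.47 (SE 0.25, limma adjusted p = 0.414) and 0.20 without Placebo replicate 3 (adjusted p = 0.394). The scaffold Incenp, survivin (Birc5) and borealin (Cdca8) had changes of 0.10 to 0.22, and of -0.12 to 0.07 without it.

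The 7 centromere and outer kinetochore genes had a median change of 0.25, and of -0.02 without Placebo replicate 3. Nuf2, a subunit of the Ndc80 complex that grips microtubules, read 6.85, 6.92 and 6.92 in E2 tumours, against 6.80, 6.75 and 5.80 in Placebo tumours. The E2 tumours were just above Placebo replicates 1 and 2. The change was 0.44 (SE 0.27, limma adjusted p = 0.476) and 0.12 without Placebo replicate 3 (adjusted p = 0.478). The other 3 subunits of that complex, Ndc80, Spc24 and Spc25, had changes of 0.01, -0.02 and -0.10 without that array, and the centromeric histone Cenpa one of -0.0088. Cenpe, a kinetochore kinesin, had the widest range among the E2 tumours of any of the 41 genes, 0.47.

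The 6 kinesins had a median change of 0.33, and of -0.07 without Placebo replicate 3. Kif20a, a motor of the midzone in cytokinesis, read 7.56, 7.63 and 7.95 in E2 tumours, against 7.72, 7.38 and 6.31 in Placebo tumours. The groups overlapped. Its change was 0.58 (SE 0.37, limma adjusted p = 0.485), and 0.16 without Placebo replicate 3 (adjusted p = 0.583). Without that array the kinesins split, with Kif20a, the cytokinesis kinesin Kif23 (0.04) and the microtubule depolymerase Kif2c (0.11) above 0. The pole-separating motor Kif11 (-0.26), the chromokinesin Kif4 (-0.31) and Kif18a (-0.18), which dampens chromosome movement, were below 0, and none of the 6 passed the test. Kif4, named after its values were seen, read 6.98, 6.94 and 7.07 in E2 tumours, against 7.68, 6.93 and 6.14 in Placebo tumours. Placebo replicate 1 was the high one. With Placebo replicates 2 and 3 both left out the limma change of Kif4 was -0.68, a comparison of the E2 tumours with that 1 tumour, which rests on its high value.

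The 4 genes of spindle assembly and cytokinesis had a median change of 0.51, and of 0.06 without Placebo replicate 3. Ect2, the exchange factor that activates RhoA for the contractile ring, read 8.57, 8.67 and 8.58 in E2 tumours, against 8.50, 8.43 and 7.29 in Placebo tumours. The groups did not overlap. Its change was 0.53 (SE 0.33, limma adjusted p = 0.474), and 0.14 without Placebo replicate 3 (adjusted p = 0.399). Tpx2, which activates Aurora A on the spindle, had a change of 0.12 without that array, and Anln one of 0.01. Prc1 had one of -0.23 (interval -0.50 to 0.05).

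Top2a, the topoisomerase that untangles sister chromatids, was the other gene of mitotic chromosome structure beside Mki67. It read 8.98, 9.16 and 9.25 in E2 tumours, against 9.15, 8.87 and 8.01 in Placebo tumours, with overlap. Its change was 0.45 (SE 0.30, limma adjusted p = 0.494), and 0.12 without Placebo replicate 3 (interval -0.17 to 0.41, adjusted p = 0.633). Top2a, which like Mki67 marks cycling cells, thus had no detectable change in the comparison where Mki67 fell, and the difference between the 2 genes was not tested.

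The tumours of a group also differed among themselves. The median SD over the 41 genes was 0.08 in the E2 group and 0.57 in the Placebo group, which rests on Placebo replicate 3. The median absolute difference between Placebo replicates 1 and 2 was 0.14. Placebo replicate 1 was above Placebo replicate 2 for 34 of 41 genes, by a median of 0.12. It had the highest level of the 6 arrays for 14 genes, among them Mki67 and Kif4, against 2, 10 and 10 genes for the E2 tumours and 5 and 0 for Placebo replicates 2 and 3.

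A second list of mitosis genes, 42 measured of 43, was chosen to set beside the first. It also held 0 genes past the threshold on 6 arrays, with a median change of 0.38 and 41 estimates above 0, and Placebo replicate 3 was lowest for 42 of 42. Without that array, limma called 3 of its 42 genes, a smaller share than the 11.6% of all genes. Pbk, a mitotic kinase, rose by 0.62 (adjusted p = 0.0113) and Mastl, the Greatwall kinase that restrains PP2A in mitosis, rose by 0.48 (adjusted p = 0.032). Ckap2l, a spindle protein, fell, with a change of -0.41 (adjusted p = 0.0294). With 1 further array left out, Pbk missed the threshold in 1 of 5 fits (adjusted p 0.0209 to 0.0507), and Mastl (0.0336 to 0.132) and Ckap2l (0.0436 to 0.135) each in 4 of 5.

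Genes of DNA replication, 25 measured of 26, had a median change of 0.53 and of 0.15 without Placebo replicate 3, the lowest array for 24 of them. Rrm2, the small subunit of ribonucleotide reductase, read 8.66, 8.77 and 8.90 in E2 tumours, against 8.01, 7.83 and 7.61 in Placebo tumours. Its rise was 0.96 on the log2 scale (SE 0.13, limma adjusted p = 0.0335), and it was 0.86 with Placebo replicate 3 left out (adjusted p = 0.00275). It was the only gene of the list past the threshold on 6 arrays (1 of 25, against 1.06% of all genes higher). With any 1 array other than Placebo replicate 3 left out, its change was 0.90 to 1.06 and its adjusted p was 0.0711 to 0.189, so that call ended while the size stayed. Without that array 4 of 25 were higher and 0 lower, against 6.40% and 5.21% of all genes. The others were thymidine kinase Tk1 (0.41, adjusted p = 0.0227), the origin licensing factor Cdc6 (0.51, adjusted p = 0.026) and the helicase subunit Mcm3 (0.36, adjusted p = 0.0385). With 1 further array left out, Tk1 (adjusted p 0.0602 to 0.0813) and Mcm3 (0.0858 to 0.144) missed the threshold in 5 of 5 fits and Cdc6 in 4 of 5 (0.0253 to 0.0955), while Rrm2 passed in 5 of 5.

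Among G1 cyclins and Cdk inhibitors, 11 measured of 12, limma called 0 genes on 6 arrays, with a median change of -0.08. The 2 of smallest p were Cdkn1b, the inhibitor p27, with a change of 0.76 (adjusted p = 0.129), and Cdk4, with one of 0.41 (adjusted p = 0.459), or 0.13 without Placebo replicate 3 (adjusted p = 0.469). With that array left out, Cdkn1b rose by 0.55 (adjusted p = 0.00722), reading 8.28, 8.30 and 8.29 in E2 tumours, against 7.69 and 7.79 in Placebo replicates 1 and 2. In the same fit the inhibitor genes Cdkn1c and Cdkn2c fell, with changes of -1.39 (adjusted p = 0.00345) and -0.87 (adjusted p = 0.00128). These were 3 calls among 11 genes, against 11.6% of all genes, and each passed with any 1 further array left out. On all 6 arrays the changes of Cdkn1c and Cdkn2c were -0.82 (adjusted p = 0.466) and -0.17 (adjusted p = 0.903).

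**Figure D4:**
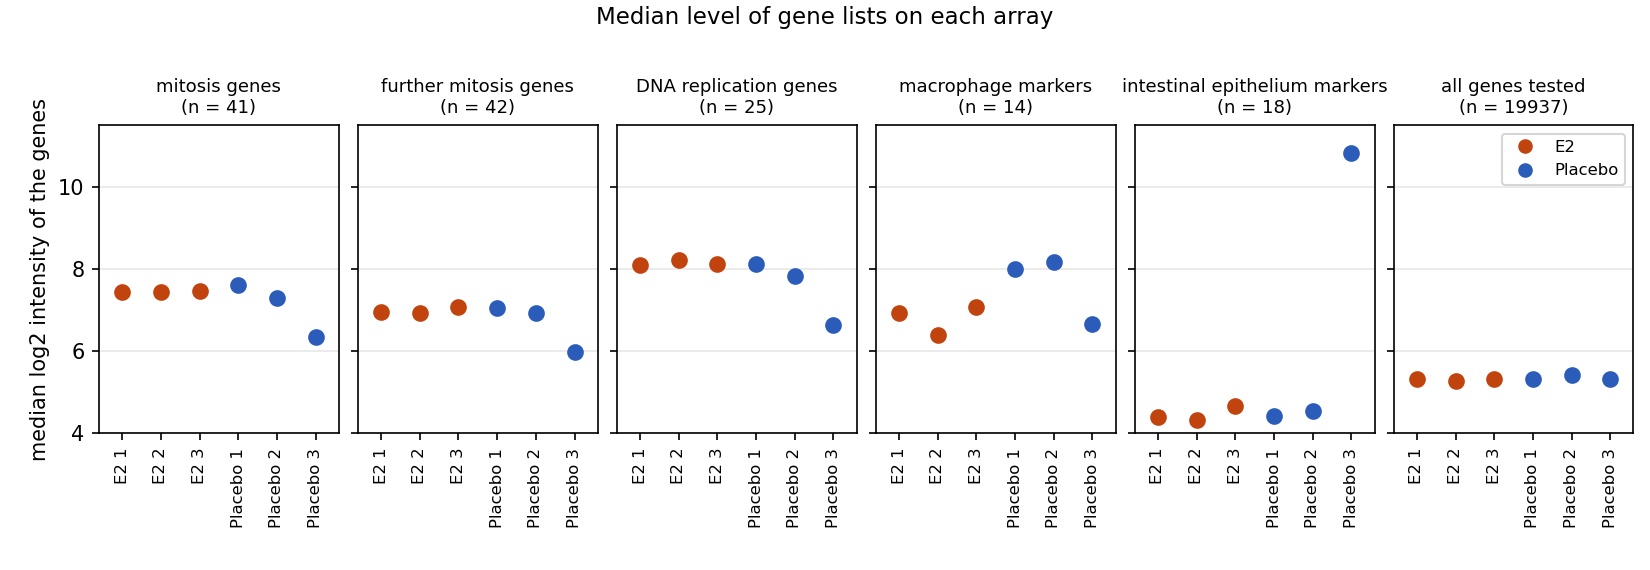
Median log2 intensity of the genes of each list on each array, with E2 tumours left of Placebo tumours. The mitosis genes, the further mitosis genes and the DNA replication genes are lowest in Placebo replicate 3, the intestinal markers are highest there at 10.82, the macrophage markers are highest in Placebo replicates 1 and 2, and the median of all genes stays between 5.26 and 5.41.

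Markers of other cells moved between the same tumours. The median level of 14 macrophage markers was 6.92, 6.39 and 7.08 in E2 tumours, against 8.00, 8.18 and 6.66 in Placebo tumours. It was highest in Placebo replicates 1 and 2, as was Mki67. Without Placebo replicate 3, 12 of the 14 fell with E2 in limma and 0 rose, with a median change of -1.25, against 5.21% of all genes lower. On 6 arrays 2 fell, against 0.326% of all genes. Lyz2, the marker of this list with the highest mean, read 8.51, 8.24 and 8.71 in E2 tumours, against 10.34, 9.98 and 9.43 in Placebo tumours. Lyz2 was among only 5 of the 14 for which all E2 tumours lay below all 3 Placebo tumours (11.4% of all genes). They lay below Placebo replicates 1 and 2 for 13 of the 14 (20.4% of all genes). Of 10 markers of mesothelium and OSE, the tissue in which the T antigens were switched on, the median level was 5.85, 5.81 and 6.14 in E2 tumours, against 8.06, 7.82 and 7.13 in Placebo tumours. This list split in Placebo replicate 3, which was the highest array for Krt8, Krt18, Krt19 and Epcam. It was below Placebo replicates 1 and 2 for Msln, Wt1, Upk3b, Muc16 and Lrrn4. In the fit without that array, 6 of the 10 markers fell in limma and 0 rose. Krt8, Krt18, Krt19 and Epcam did not pass there (adjusted p 0.144 to 0.855). On all 6 arrays 1 of the 10 fell and 0 rose. Among 9 endothelial markers 1 rose (Kdr) and 4 fell without Placebo replicate 3, and 1 rose and 0 fell on all 6 arrays. The shares of all genes given above apply to these lists too. They were 6.40% higher and 5.21% lower on 5 arrays, and 1.06% higher and 0.326% lower on all 6. The 7 T and B cell markers had medians of 4.21 to 4.57 on the 6 arrays, near the lower quartile of all genes. The part of these cell type markers in the changes of Mki67 and Mad2l1 was not tested.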

How the data were processed

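RNA from 6 MASE2 tumours was hybridised to 1 array each. Groups and replicate numbers came from the sample titles, and the series' design text calls the replicates biological. Each deposited value is a log2 intensity of 1 probe set. The authors made them with RMA, as the submitters' processing notes name it, without a version. RMA equalises the arrays' distributions, so a tissue mixed into 1 sample can shift other genes of its array.

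Of 34760 probe sets, 21640 (62.3%) had 1 gene symbol in the platform annotation, 1321 had several and 11799 were not listed; 21553 matched RefSeq by gene identifier, which changed 0 symbols. For the 954 genes with several probe sets the brightest was used, leaving 19937 genes. No gene was removed as dim. Among sample columns, 0 were left unmapped.

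Group means were fitted in limma 3.58.1 (lmFit, then eBayes; R 4.3.3) over all genes, two-sided, with Benjamini-Hochberg adjustment and a threshold of 0.05. Changes are E2 minus Placebo, intervals are at 95%. On simulated data for the comparison of E2 with Placebo (19937 genes, 200 changed), 58.0% of log2 changes of 1 and 85.0% of 2 were recovered, with 7 false calls. The simulation held no array like Placebo replicate 3.

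The mitosis genes and all lists were chosen with earlier results of these data known, so lists get counts and medians and no test. Values in every sample are given for Mki67, the called genes and the gene of smallest p in each role; from other cell cycle lists, up to 4 called genes, or the 2 of smallest p, were to be named. Same-numbered tumours did not deviate together (r over all genes -0.029, -0.182 and -0.130). The Placebo mean behind these deviations includes Placebo replicate 3, so the values cannot exclude a pairing. The labels state none, and none was fitted in the main comparison. The alternatives were leaving out arrays, a replicate block, filtering, averaging probe sets, quantile normalization, median centring, trended robust variance, array weights and an unadjusted threshold; 7 were added after the values were seen. Promoters were searched in Python 3.11.15.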

Additional observations from a re-analysis of the deposited data

How the results depend on the processing

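No mitosis gene was called on 6 arrays with the replicate block (0 of 41, and 10 genes over all genes), although the labels state no pairing. None was called either with the dim gene filter, averaged probe sets, quantile normalization, median centring or a trended robust variance. Array weights called 1, Mad2l1 (0.69, adjusted p = 0.0187). Leaving out arrays gave 0 to 3 calls. Without Placebo replicate 3 there were 2 calls, and 2 with array weights as well. The block fitted without that array left out E2 replicate 3 too, and it gave 2. On all 6 arrays an unadjusted p called 2. For the further mitosis genes the unadjusted count was 3 and leaving out arrays gave 0 to 3; for the G1 genes these were 1 and 0 to 3. For DNA replication the unadjusted count was 5, leaving out arrays gave 0 to 4, and the block gave 0, since Rrm2 lost its call there and in every fit without 1 array other than Placebo replicate 3. Over all genes, 422 were called with median centring (342 higher, 80 lower), 1786 with array weights (1026 and 760) and 3298 unadjusted (2069 and 1229), and leaving out arrays gave 31 to 2315. The cause of these shifts was not tested.

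The median change of the mitosis genes was 0.17 with quantile normalization, 0.04 with array weights, -0.0049 without Placebo replicate 3, and 0.28 to 0.52 with any other array left out. Array weights turned the sign of 14 genes: Ccna2 -0.04, Cdc25b -0.01, Foxm1 -0.08, Espl1 -0.13, Incenp -0.08, Cdca8 -0.08, Cenpe -0.10, Cenpf -0.17, Spc24 -0.003, Spc25 -0.04, Kif11 -0.20, Kif4 -0.28, Kif18a -0.15 and Prc1 -0.15. Quantile normalization turned Cdca8 (-0.04) and Kif4 (-0.05), and median centring turned Ckap2l (0.04). Leaving out arrays moved estimates through 0 for Ccna2 (-0.07 to 0.46), Cdc25b (-0.07 to 0.40), Foxm1 (-0.13 to 0.43), Plk1 (-0.02 to 0.52), Nek2 (-0.0092 to 0.36), Bub3 (-0.04 to 0.57), Ttk (-0.0066 to 0.44), Cdc20 (-0.0049 to 0.52), Espl1 (-0.18 to 0.56), Incenp (-0.12 to 0.32), Cdca8 (-0.11 to 0.22), Cenpa (-0.0088 to 0.43), Cenpe (-0.13 to 0.44), Cenpf (-0.21 to 0.41), Spc24 (-0.02 to 0.16), Spc25 (-0.10 to 0.57), Kif11 (-0.26 to 0.52), Kif4 (-0.31 to 0.46), Kif18a (-0.18 to 0.30), Prc1 (-0.23 to 0.64), Mki67 (-1.08 to 0.03), Ckap2l (-0.48 to 0.23) and Cdkn2c (-0.90 to 0.19). The block without Placebo replicate 3 also left out the same-numbered E2 replicate 3. It gave Mki67 -0.94 (adjusted p = 0.00679) and Mad2l1 0.64 (adjusted p = 0.0324), so it does not cover all the remaining arrays. The number of arrays, 3 a group, limits the precision of every value.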
